A study of Mus musculus with 18 samples.

Results

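The genes described here are 10 genes that mark the hepatocytes around the central vein of the liver lobule: Glul, Rhbg, Slc1a2, Oat, Axin2, Lgr5, Tbx3, Cyp2e1, Cyp1a2 and Gulo. They were taken by symbol from the 19057 gene symbols of a liver RNA sequencing table, and all 10 passed the filter on low values in every comparison. The table held 18 livers of ICR mice sampled at 10 weeks of age, 3 mice in each of 6 groups. Con mice received no STZ and no AOS. STZ mice received streptozotocin (STZ), a toxin of insulin-producing beta cells that is used to model type 1 diabetes. A10-FMT mice received STZ and then, by mouth, microbiota from donors dosed with alginate oligosaccharides (AOS) at 10 mg/kg, and Con-FMT mice received STZ and then microbiota from control donors. The transferred material was pooled intestinal content. AOS mice received AOS at 10 mg/kg without STZ, and STZ+AOS mice received STZ and AOS at 10 mg/kg. No group received microbiota without STZ, so transfer was compared only within STZ-treated mice. Nothing in the sources used here says whether mice of a group shared a cage or litter, and p-values measure the spread between these samples only.

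Blood enters the lobule at its portal side and leaves through the central vein, and hepatocytes divide their work along this path. Wnt ligands and R-spondins made by endothelial cells of the central vein keep β-catenin signalling active in the nearest hepatocytes. There Axin2, Lgr5 and Tbx3 are expressed, ammonia that escaped the periportal urea cycle is captured as glutamine, and foreign compounds are oxidised by cytochrome P450 enzymes. Periportal hepatocytes carry most gluconeogenesis, ureagenesis and amino acid breakdown. These livers were sequenced whole, so the position of a transcript in the lobule was not measured, and fewer cells of a type cannot be told apart from less RNA per cell.

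Values are RPKM, the read density of a transcript relative to its length and to all mapped reads, which allow levels of different genes to be set side by side. Tests were made with limma on log2(RPKM + 1) over all genes, and a gene was called at a Benjamini-Hochberg adjusted p under 0.05. This scale understates the change of genes near 1 RPKM, such as Lgr5. The depth of the libraries in reads is unknown. The sum of RPKM over all genes was 749557 to 806937 in Con, 631126 to 684659 in STZ and 621121 to 806937 over the 18 libraries. Hepatocyte markers summed to 34905 to 51656 RPKM in the 4 STZ-treated groups and to 41246 to 57351 RPKM in Con and AOS. Kupffer cell and macrophage markers summed to 87.7 to 128 RPKM in Con and 129 to 268 RPKM in STZ. Stellate cell markers summed to 74.3 to 85.9 RPKM in Con and 111 to 136 RPKM in STZ. Only 2 of 9 Kupffer cell and macrophage markers and 2 of 8 stellate cell markers were called higher in STZ against Con. With median-ratio scaling these counts were 1 and 0. The median log2 change was 0.57 for the first list, 0.10 for the second and 0.21 for all genes. Markers of the pancreas, which lies beside the liver, summed to 32.2 to 41.2 RPKM in Con and 3.58 to 8.77 RPKM in STZ. They were at 8.98 to 9.68 RPKM in A10-FMT, 7.01 to 14.4 RPKM in Con-FMT and 3.45 to 70.04 RPKM in STZ+AOS, where mouse 3 was highest. Cela1, an elastase, alone of the 9 pancreas markers passed the filter. It fell by 2.55 on the log2 scale in STZ (SE 0.33, adjusted p = 0.000534), and Prss1 and Ins1 were at 0 in all libraries. The part of these cell type and pancreas markers in the results was not tested.

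In Con livers the members covered more than 3 orders of magnitude of RPKM. Cyp2e1, the enzyme that oxidises ethanol and other small molecules, was highest at 2183 ± 410 RPKM (SD, n = 3). Cyp1a2, which oxidises caffeine and aromatic amines, followed at 403 ± 26.1 RPKM, and Glul, the glutamine synthetase, at 178 ± 9.92 RPKM. Gulo, the last enzyme of vitamin C synthesis, lay at 137 ± 1.71 RPKM, and Oat, the ornithine aminotransferase, at 78.1 ± 4.69 RPKM. The glutamate transporter Slc1a2 (14.4 ± 1.60 RPKM), the ammonia transporter Rhbg (8.65 ± 2.58 RPKM) and the transcriptional repressor Tbx3 (6.68 ± 0.55 RPKM) were lower. Axin2, a scaffold that returns β-catenin to degradation, lay at 1.92 ± 0.17 RPKM and Lgr5, a receptor for R-spondins, at 0.94 ± 0.13 RPKM. The plot of every mouse shows these levels beside those of the other groups.

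**Figure D1:**
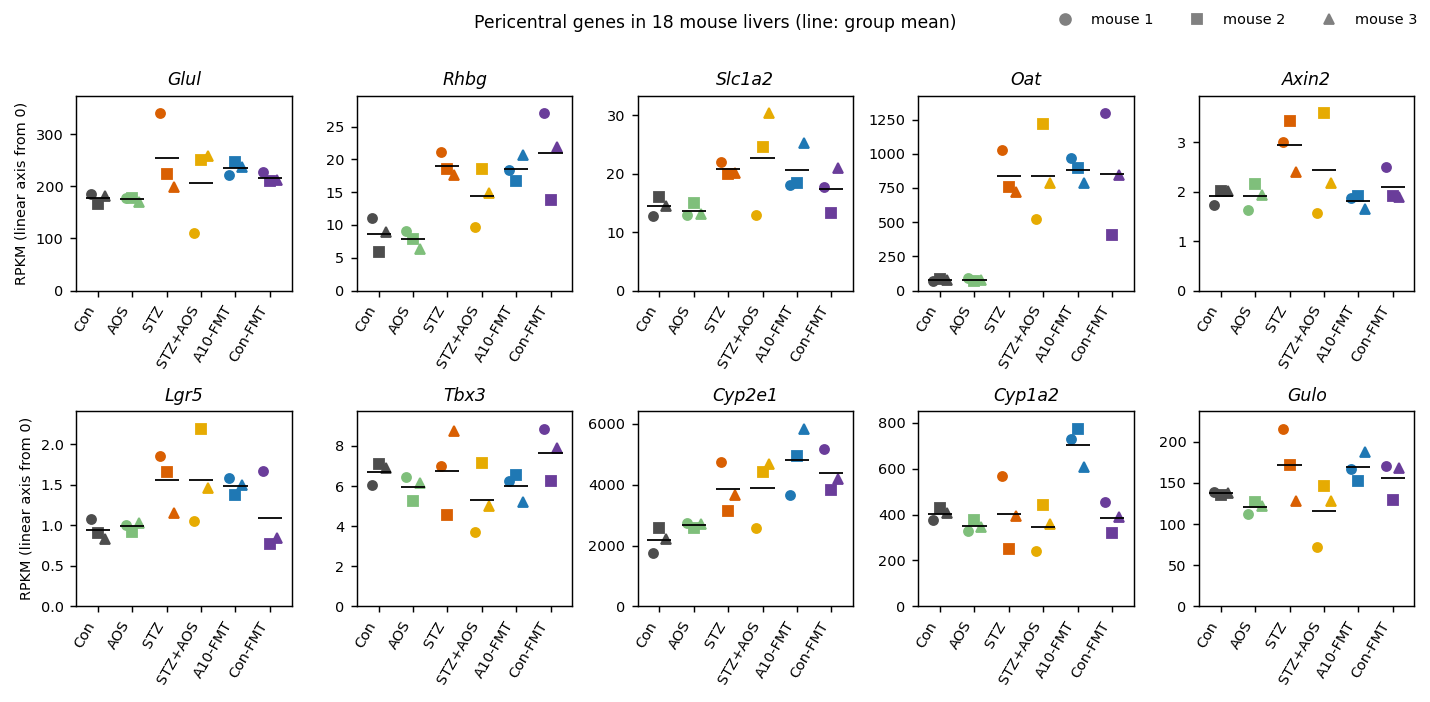
RPKM of each of the 10 pericentral genes (linear axis from 0, a separate scale per gene) in 18 livers. Points are mice, their shape gives the mouse number within its group, and the black line is the mean of 3 mice. The 12 STZ-treated livers held Oat between 408 and 1296 RPKM, and the 6 livers without STZ held it between 68.8 and 91.6 RPKM.

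Promoters of Oat, Cyp2e1 and Cyp1a2 are shown because the comparisons turn most on these members. They run from 250 bases before to 50 bases after the RefSeq gene start (GRCm38.p6, 5′ to 3′ on the gene's strand), and capitals mark the TCF/LEF motif CTTTGAA on either strand. Oat is at chr7:132576349-132576648 (minus), Cyp2e1 at chr7:140763569-140763868 (plus) and Cyp1a2 at chr9:57683606-57683905 (minus).
Oat: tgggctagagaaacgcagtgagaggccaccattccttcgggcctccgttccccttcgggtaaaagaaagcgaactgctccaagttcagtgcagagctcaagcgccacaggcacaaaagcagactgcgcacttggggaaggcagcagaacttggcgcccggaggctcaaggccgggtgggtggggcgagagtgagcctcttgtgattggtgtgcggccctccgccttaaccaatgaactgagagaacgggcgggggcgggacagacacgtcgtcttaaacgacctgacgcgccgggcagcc
Cyp2e1: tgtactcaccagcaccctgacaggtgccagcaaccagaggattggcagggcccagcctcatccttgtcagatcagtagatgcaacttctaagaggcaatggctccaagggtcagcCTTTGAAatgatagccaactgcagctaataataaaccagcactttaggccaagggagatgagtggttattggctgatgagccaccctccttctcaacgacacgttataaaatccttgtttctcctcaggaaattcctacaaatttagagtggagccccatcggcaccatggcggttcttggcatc
Cyp1a2: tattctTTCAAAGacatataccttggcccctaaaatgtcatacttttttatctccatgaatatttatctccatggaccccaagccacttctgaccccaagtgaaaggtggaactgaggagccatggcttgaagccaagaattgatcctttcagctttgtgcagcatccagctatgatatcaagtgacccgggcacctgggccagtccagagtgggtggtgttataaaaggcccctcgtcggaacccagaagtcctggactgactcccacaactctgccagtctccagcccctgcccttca
RefSeq promoters were matched for 6 members: Glul, Slc1a2, Oat, Cyp2e1, Cyp1a2 and Axin2. CTTTGAA was found in Cyp2e1, 135 bases before the start, and on the opposite strand in Cyp1a2, and 5.14% of 32817 promoters of this length hold it. The related CTTTGAT was found in Slc1a2 alone, against 3.73% of promoters. The Slc1a2 window, chr2:102706188-102706487 (plus), lies inside the annotated gene span of 102658659 to 102790784. Which start the liver uses was not tested. Core letters of 3 other factors were searched on both strands and found in none of the 6. They were GTTAAT for HNF1, in 7.1% of all promoters, CAAAGTC for HNF4, in 4.44%, and GCGTG for the Ah receptor, in 32.4%. These matches describe letters in a window and do not show binding.

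The first question was which of these genes differed between STZ and Con livers. In STZ livers 6 of the 10 genes rose: Oat, Rhbg, Cyp2e1, Slc1a2, Glul and Axin2. None fell. Over all 10602 genes tested, 38.5% were called and 33% were called higher, and the median log2 change was 0.45 for the members and 0.21 for all genes. For 7 of the 10 members every STZ mouse lay above every Con mouse, which held for 40.8% of all genes.

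Oat carries ornithine towards glutamate and is the member that moved most. Its level was 72.8, 81.6 and 79.9 RPKM in the 3 Con mice and 1024, 757 and 724 RPKM in the 3 STZ mice. The lowest STZ liver was far above the highest Con liver. The log2 change was 3.39 (SE 0.32, adjusted p = 0.00019), which placed Oat at rank 33 of the 10602 genes by log2 change. Rhbg moves ammonia across the hepatocyte membrane. It was at 11.1, 5.92 and 8.99 RPKM in Con and at 21.1, 18.5 and 17.6 RPKM in STZ, with no overlap and a fitted log2 difference of 1.09 (SE 0.23, adjusted p = 0.00509). Oat and Rhbg were called under each of 9 other settings of the fit and after leaving out each of the 6 mice in turn.

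Oat lies on chromosome 7 (132557478 to 132576398, minus strand) and Rhbg on chromosome 3 (88242874 to 88254709, minus strand) in GRCm38. Glul (chromosome 1, 153899944 to 153909723, plus strand) and Slc1a2 (chromosome 2, 102658659 to 102790784, plus strand) take part in the same handling of ammonia, since Slc1a2 brings in the glutamate that Glul amidates to glutamine. Glul was at 186, 167 and 181 RPKM in Con and at 340, 224 and 199 RPKM in STZ. STZ mouse 1 stood above the other STZ mice, and the lowest STZ mouse was close to the highest Con mouse. The log2 change was 0.47 (SE 0.17, adjusted p = 0.0443). Slc1a2 was at 12.8, 15.96 and 14.5 RPKM in Con and at 22.1, 20.03 and 20.1 RPKM in STZ, a fitted log2 difference of 0.50 (SE 0.17, adjusted p = 0.0340). The 3 STZ values lay close together and above all Con values.

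Among the enzymes of foreign compound and vitamin C metabolism, Cyp2e1 (chromosome 7, 140763739 to 140774987, plus strand) rose, and Cyp1a2 (chromosome 9, 57676937 to 57683703, minus strand) and Gulo (chromosome 14, 65986786 to 66009207, minus strand) were not called. Cyp2e1 was at 1755, 2572 and 2221 RPKM in Con and at 4760, 3136 and 3671 RPKM in STZ, without overlap, with a fitted log2 difference of 0.82 (SE 0.24, adjusted p = 0.0228). Cyp1a2 spread widely in STZ, with 568, 250 and 395 RPKM against 376, 428 and 407 RPKM in Con. STZ mice lay on both sides of the Con range, and the log2 change was -0.07 (SE 0.25, adjusted p = 0.836). Gulo was at 215, 172 and 128 RPKM in STZ and between 135 and 139 RPKM in Con, a fitted log2 difference of 0.29 (SE 0.18, adjusted p = 0.209), with 1 STZ mouse below all Con mice.

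The β-catenin genes were expressed at low levels. They lie on chromosome 11 (Axin2, 108920349 to 108950783, plus strand), chromosome 10 (Lgr5, 115450311 to 115587780, minus strand) and chromosome 5 (Tbx3, 119670669 to 119684724, plus strand). Axin2 was at 1.72, 2.02 and 2.02 RPKM in Con and at 3.01, 3.43 and 2.39 RPKM in STZ, with no overlap and a fitted log2 difference of 0.43 (SE 0.12, adjusted p = 0.0155). Lgr5 was at 1.08, 0.91 and 0.83 RPKM in Con and at 1.86, 1.66 and 1.15 RPKM in STZ. All 3 STZ values were above Con, but the log2 change of 0.39 (SE 0.16) did not pass the test at an adjusted p of 0.0710. Tbx3 was at 6.06, 7.09 and 6.89 RPKM in Con and at 7.01, 4.55 and 8.72 RPKM in STZ, a fitted log2 difference of -0.02 (SE 0.18, adjusted p = 0.940). STZ mice lay below and above the Con range.

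**Figure D2:**
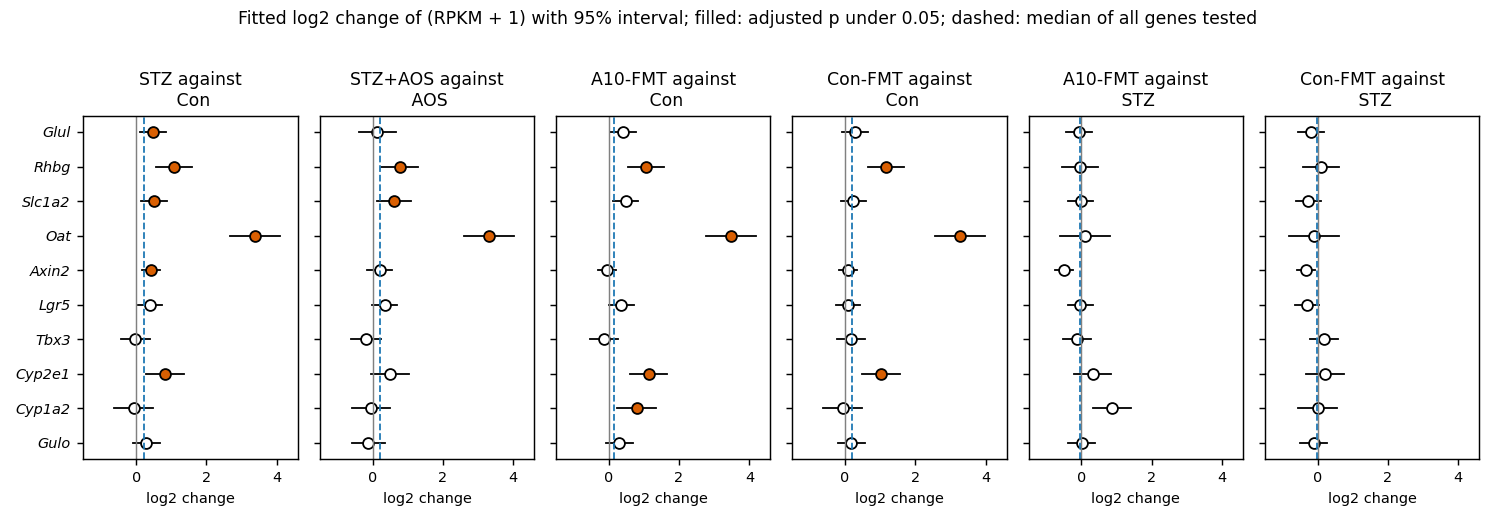
Fitted log2 change of (RPKM + 1) for the 10 genes in 6 comparisons, with 95% confidence intervals. Filled points have an adjusted p under 0.05 (limma), and the dashed line is the median log2 change of all genes tested. Oat was near 3.4 in the 4 comparisons of an STZ-treated group with a group without STZ. No member was called in A10-FMT or Con-FMT against STZ.

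How many members were called depended on the scaling and on single mice. The median of all genes lay 0.21 above 0 on the log2 scale in STZ against Con, and 85.7% of the genes called were higher. When libraries were scaled by their median ratio, 51.5% of the called genes were higher and 2 members were called, Oat and Rhbg. Under quantile normalization the share was 51.7% and 3 members were called, Oat, Rhbg and Cyp2e1. Each scaling called 27.1% of all genes. The log2 changes of Glul, Axin2, Slc1a2 and Cyp2e1 stayed positive under both scalings. Without Con mouse 1 the count was 2, and without Con mouse 3, STZ mouse 1 or STZ mouse 2 it was 3. Without Con mouse 2 it was 5, and without STZ mouse 3 it was 8, with Lgr5 and Gulo then added. The share of all genes called ran from 24.2% without Con mouse 1 to 47.4% without STZ mouse 3. Glul was called in 1 of these 6 fits, Slc1a2 in 2, Cyp2e1 in 3 and Axin2 in 4.

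**Figure D3:**
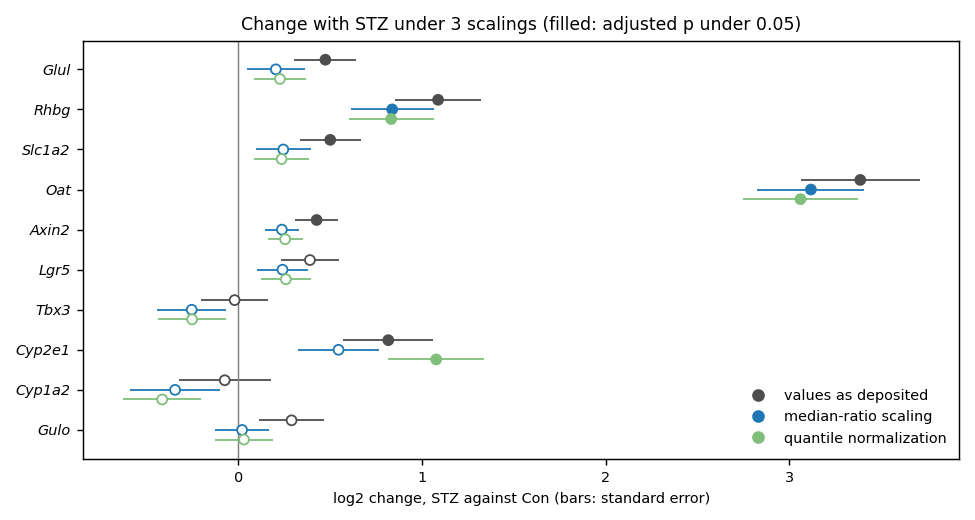
Log2 change in STZ against Con for the 10 genes with the values as deposited, after median-ratio scaling and after quantile normalization (points), with standard errors (bars). Filled points have an adjusted p under 0.05. Oat and Rhbg were filled under all 3 scalings, and Glul, Slc1a2 and Axin2 only with the values as deposited.

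Genes near these members in function were counted from lists. Beside each list count stand the shares over all 10602 genes tested, of which 33% were called higher and 5.52% lower. With median-ratio scaling 1480 of all 10602 genes were called higher and 1391 lower. Whether a list differed from these shares was not tested. Of 20 other pericentral genes, 9 rose and 2 fell in STZ against Con, with a median log2 change of 0.45. Aldh3a2, a fatty aldehyde dehydrogenase, rose by 2.02 on the log2 scale (SE 0.24, adjusted p = 0.00047). The cytochrome P450 Cyp2a5 rose by 5.20 (SE 0.65, adjusted p = 0.000478), from 42.4 to 152 RPKM in Con to 1466 to 6981 RPKM in STZ. Avpr1a, the vasopressin receptor of hepatocytes, fell by 0.74 (SE 0.14, adjusted p = 0.0032). With median-ratio scaling 6 of these genes were called higher and 5 lower.

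Most periportal genes rose as well, but not all. Of 24 tested, 17 were called higher and 2 lower, and their median log2 change was 1.04. Every STZ mouse lay above every Con mouse in 16 (40.8% of all genes) and below in 2 (6.98%). The 2 were Cyp2f2, at 1291 to 1528 RPKM in Con and 454 to 1266 RPKM in STZ, and Cdh1. Cdh1 was at 16.3 to 19.1 RPKM in Con and 11.6 to 14.4 RPKM in STZ. Pck1, the gluconeogenic enzyme that insulin represses, rose by 2.76 (SE 0.29, adjusted p = 0.000292), Etnppl, which breaks down phosphoethanolamine, by 3.68 (SE 0.42, adjusted p = 0.000384) and Cps1, the entry enzyme of the urea cycle, by 1.37 (SE 0.17, adjusted p = 0.000512). With median-ratio scaling 13 were called higher and 3 lower. The plot of list medians by mouse gives both zones side by side. Each STZ mouse had a periportal median of at least 0.84 above Con, and its median over the 10 pericentral members lay between 0.28 and 0.62.

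**Figure D4:**
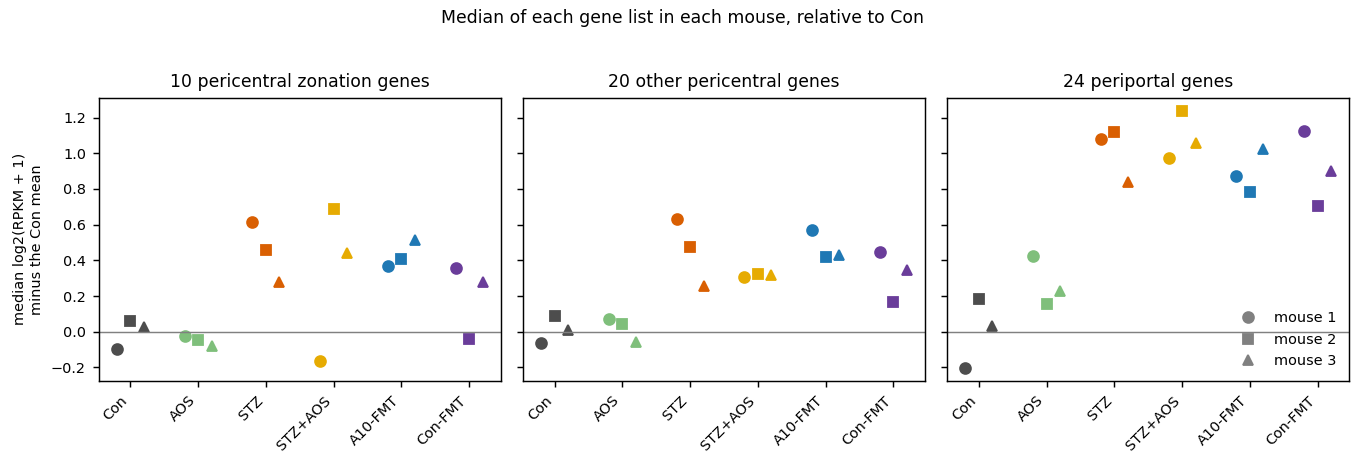
Median of log2(RPKM + 1) minus the Con mean over 3 gene lists, for each of 18 mice. Points are mice, and their shape is the mouse number. STZ+AOS mouse 1 lay at -0.16 for the 10 members, at 0.31 for the 20 other pericentral genes and at 0.97 for the 24 periportal genes.

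The Wnt pathway was counted at each step. Of 20 ligands, R-spondins and receptors, 15 passed the filter, and 7 of these were called higher and none lower. With median-ratio scaling 4 were called higher and 2 lower. These counts depend on the filter, which passed Wnt2 though no Con mouse reached 1 RPKM. The filter left out Wnt5a, at 0.58 to 0.64 RPKM in Con and 0.15 to 0.25 RPKM in STZ. It also left out Wnt9b, at 0.22 to 0.28 RPKM in Con and 0.38 to 1.22 RPKM in STZ. Wnt2, a ligand of liver endothelial cells, was below 1 RPKM in Con (0.55 ± 0.08) and at 1.32 ± 0.15 RPKM in STZ (log2 change 0.58, SE 0.15, adjusted p = 0.0114). The receptors Fzd4 (0.93, adjusted p = 0.00181) and Lrp6 (0.61, adjusted p = 0.00323) rose too. Of 16 tested transducers inside the cell 8 rose, among them Apc (0.60, adjusted p = 0.00181), but with median-ratio scaling only 1 did. Of 15 feedback and target genes 9 passed the filter and 8 of these rose, and 6 did with median-ratio scaling. Tnfrsf19 passed though no Con mouse reached 1 RPKM (0.27 to 0.62), so the filter bears on this count. Among the genes left out, Zbtb7c was at 0.84 to 1.19 RPKM in Con and 0.11 to 0.41 RPKM in STZ. Dkk3, also left out, was at 0.30 to 0.52 RPKM in Con and 0.53 to 0.84 RPKM in STZ.

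The called targets had larger log2 changes than Axin2 in several cases, a difference between genes that was not tested. Notum, a secreted enzyme that inactivates Wnt ligands, lay between 11.7 and 14.4 RPKM in Con and between 19.4 and 34.1 RPKM in STZ (log2 change 0.91, SE 0.17, adjusted p = 0.00285). The ubiquitin ligase Znrf3, which removes Wnt receptors, rose by 0.81 (SE 0.11, adjusted p = 0.000722). Ccnd1, the cyclin of the G1 phase, rose by 2.15 (SE 0.39, adjusted p = 0.00232), and the receptor Tnfrsf19 by 1.24 (SE 0.24, adjusted p = 0.0030). Endothelial markers summed to 57.8 to 66.2 RPKM in Con and to 67.1 to 86.1 RPKM in STZ, with 2 of 9 tested called higher; their part in the Wnt2 value was not tested.

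Of 18 genes of glutamine and ammonia handling 9 passed the filter, and 6 of these rose and 1 fell. With median-ratio scaling 4 were called higher and 1 lower. The glutamine transporter Slc38a2 rose by 1.66 (SE 0.18, adjusted p = 0.000328) and Slc38a4, a transporter of neutral amino acids, by 1.05 (SE 0.18, adjusted p = 0.00175). Gls2, the liver glutaminase, opposes Glul and rose by 1.52 (SE 0.19, adjusted p = 0.000471). Its change was larger than the 0.47 of Glul, though the difference between both genes was not tested. Of 7 genes of ascorbate synthesis and transport around Gulo, 4 rose and 1 fell, and with median-ratio scaling 2 were called higher and 2 lower. Ugp2, which makes UDP-glucose, rose by 1.94 (SE 0.17, adjusted p = 0.000139), and Rgn, the lactonase just before Gulo, fell by 0.75 (SE 0.18, adjusted p = 0.00802).

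Cyp1a2 is a target of the Ah receptor, and 5 of 6 tested genes of that receptor's battery rose in STZ although Cyp1a2 itself was not called. The list held 9 genes, and Cyp1a1 passed the filter though no Con mouse reached 1 RPKM. Nqo1, a quinone reductase, rose by 2.36 (SE 0.30, adjusted p = 0.000527). Cyp1a1 lay between 0.29 and 0.48 RPKM in Con and between 1.29 and 3.74 RPKM in STZ (log2 change 1.21, SE 0.27, adjusted p = 0.00637). With median-ratio scaling 3 of the 6 were called higher and 1 lower.

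The next question was whether microbiota transfer moved these genes in STZ mice. No member was called in A10-FMT against STZ, where 0.226% of all genes were called at all and 20.9% had an unadjusted p under 0.05. Oat was at 971, 893 and 789 RPKM in A10-FMT, all within the range of the STZ mice. The log2 change was 0.09, with a 95% interval from -0.61 to 0.80. Rhbg was at 18.4, 16.6 and 20.7 RPKM, Slc1a2 at 18.02, 18.5 and 25.3 RPKM and Glul at 221, 247 and 236 RPKM. All 3 genes overlapped STZ.

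Axin2 and Cyp1a2 did not overlap between A10-FMT and STZ. Axin2 was at 1.86, 1.90 and 1.65 RPKM in A10-FMT, below all STZ mice and close to Con, with a fitted log2 difference of -0.48 against STZ (SE 0.12, adjusted p = 0.0753). Without STZ mouse 3 it was called (-0.59, adjusted p = 0.0111), in a fit where 12.7% of all genes were called. Cyp1a2 was at 728, 772 and 605 RPKM, above all STZ mice, with a fitted log2 difference of 0.87 (SE 0.25, adjusted p = 0.106). Without STZ mouse 1 it was called (1.15, adjusted p = 0.0381), in a fit where 1.07% of all genes were called. Between these groups 21.5% of all genes had no overlap. Cyp2e1 was at 3673, 4931 and 5832 RPKM (log2 change 0.32, adjusted p = 0.490), and Tbx3, Gulo and Lgr5 differed by no more than 0.12.

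Con-FMT gave no called member against STZ either (0.00943% of all genes were, and 20.1% had an unadjusted p under 0.05). Oat was at 1296, 408 and 846 RPKM and Rhbg at 27.0, 13.8 and 21.9 RPKM. Mouse 1 was high and mouse 2 low in both genes, and the spread of Oat (SD 444 RPKM) exceeded that in the other groups. Axin2 was at 2.49, 1.91 and 1.89 RPKM, a fitted log2 difference of -0.35 against STZ (SE 0.12, adjusted p = 0.144), and without STZ mouse 3 it was called (-0.45, adjusted p = 0.0250), in a fit where 15.5% of all genes were called. Lgr5 was at 1.67, 0.77 and 0.84 RPKM, where 2 mice lay at the Con level (-0.30, adjusted p = 0.303). The other 8 members had log2 changes between -0.27 and 0.20.

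Against Con, the same libraries gave calls in both transfer groups, and both comparisons share the 3 Con mice with STZ against Con. A10-FMT had 4 members called, all higher, where 18.4% of all genes were called and 15.9% higher. Oat (3.48, SE 0.32, adjusted p = 0.0002), Rhbg (1.05, SE 0.23, adjusted p = 0.0135), Cyp2e1 (1.13, SE 0.24, adjusted p = 0.0124) and Cyp1a2 (0.79, SE 0.25, adjusted p = 0.0485) rose. Slc1a2 (0.48, adjusted p = 0.0654), Glul (0.40, adjusted p = 0.116) and Lgr5 (0.36, adjusted p = 0.130) were not called. For 8 of the 10 members every A10-FMT mouse lay above every Con mouse, which held for 41.7% of all genes. Without A10-FMT mouse 3 only Oat was called, in a fit where 5.89% of all genes were. Without Con mouse 1 only Oat and Rhbg were called, where 5.17% of all genes were. Cyp1a2 was lost on leaving out any of the 6 mice. Con-FMT had 3 members called higher, where 19.4% of all genes were called and 17.5% higher: Oat (3.28, SE 0.32, adjusted p = 0.000308), Rhbg (1.17, SE 0.23, adjusted p = 0.00987) and Cyp2e1 (1.02, SE 0.24, adjusted p = 0.0184). Cyp2e1 was lost there without Con-FMT mouse 1, Con mouse 1 or Con mouse 3, which left 2 members called. In these fits 5.71%, 5.82% and 6.67% of all genes were called. The other 7 members had log2 changes between -0.07 and 0.29.

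The member with the largest difference between A10-FMT and Con-FMT was Cyp1a2. The Con-FMT mice were at 453, 319 and 389 RPKM, and all A10-FMT mice were above 605 RPKM. The log2 difference was 0.86 (SE 0.25, 95% interval 0.32 to 1.41), with an unadjusted p of 0.00514 and an adjusted p of 0.999 in limma. No gene was called in this comparison (0% of 10602), and 303 genes had an unadjusted p under 0.05. Between these groups 8.92% of all genes had no overlap. The 3 A10-FMT mice also held the 3 highest Cyp1a2 values of all 18 livers, which was true of 19 of 10822 genes (0.176%) and of no other member; this count was made after the values were seen. The other 9 members differed between the transfer groups by -0.30 to 0.27.

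In AOS against Con no member was called (0.00924% of all genes were, and 7.22% had an unadjusted p under 0.05). Gulo was at 112, 127 and 122 RPKM in AOS, below all Con mice (135 to 139 RPKM). Of all genes 24.4% had no overlap between these groups. Oat was at 91.6, 68.8 and 76.1 RPKM, Rhbg at 9.12, 7.93 and 6.39 RPKM and Glul at 177, 177 and 171 RPKM. Cyp2e1 was at 2750, 2570 and 2697 RPKM, a fitted log2 difference of 0.31 (SE 0.25, adjusted p = 0.837). The other members changed by -0.21 to 0.04.

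In STZ+AOS against STZ the median log2 change was -0.21 for the members and 0.05 for all genes, and no member was called. A mouse of the STZ+AOS group stood apart. Mouse 1 of STZ+AOS had the lowest value of its group in 10 of 10 members, against 31.1% of all 10822 genes, 9 of 20 other pericentral genes and 7 of 24 periportal genes. It lay below the mean of the other 2 mice by a median of 0.76 on the log2 scale (0.45 to 1.20). Oat was at 520, 1216 and 785 RPKM, Glul at 110, 251 and 258 RPKM, Cyp2e1 at 2593, 4413 and 4669 RPKM and Slc1a2 at 12.9, 24.6 and 30.3 RPKM. Gulo was at 72.7, 147 and 127 RPKM and Cyp1a2 at 241, 441 and 358 RPKM. Glul, Gulo, Cyp1a2, Axin2 and Tbx3 were lower in mouse 1 than in any other of the 18 livers. Its Oat was still more than 5 times the highest value without STZ. Erythroid markers summed to 280 RPKM in this mouse and to 1474 and 1502 RPKM in the other STZ+AOS mice. Lymphocyte and neutrophil markers summed to 20.2 RPKM in this mouse and to 7.78 and 8.78 RPKM in the others. STZ mouse 1 also had a low erythroid sum (470 RPKM, against 1639 and 1874 RPKM), but was highest of its group in 8 members. The part of these markers in the values was not tested.

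No gene was called in STZ+AOS against STZ (0% of 10822, with 657 genes at an unadjusted p under 0.05). Gulo changed by -0.60 (SE 0.22, unadjusted p = 0.0153, adjusted p = 0.806), Rhbg by -0.42 (adjusted p = 0.811) and Glul by -0.36 (adjusted p = 0.811). Without STZ+AOS mouse 1 the value for Glul was 0.040. The effects of AOS with and without STZ were compared by their difference, and again no gene was called (0%, with 584 genes at an unadjusted p under 0.05). The members' differences ran from -0.41 in Gulo to 0.11 in Slc1a2.

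Within AOS-treated mice, the log2 changes of STZ+AOS against AOS use no library of STZ against Con. Their standard errors and p-values share the spread estimated over all 6 groups, which include Con and STZ. In STZ+AOS against AOS 3 members rose, where 37.9% of all genes were called and 31.8% higher. They were Oat (3.32, SE 0.34, adjusted p = 2.2e-05), Rhbg (0.77, SE 0.25, adjusted p = 0.0244) and Slc1a2 (0.61, SE 0.23, adjusted p = 0.0490). Cyp2e1 (0.50, adjusted p = 0.129) and Lgr5 (0.35, adjusted p = 0.112) were not called. Without STZ+AOS mouse 1, Oat, Rhbg, Slc1a2, Glul, Lgr5 and Cyp2e1 were called (6 members), in a fit where 34.6% of all genes were called. Only Oat was called without STZ+AOS mouse 2, STZ+AOS mouse 3, AOS mouse 2 or AOS mouse 3. The same held under median-ratio scaling and with only STZ+AOS and AOS in the fit. In the fits that called only Oat, 23.9% to 37.5% of all genes were called.

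The spread of the members among mice of 1 group was compared too. Con-FMT mouse 2 had the lowest value in 9 of 10 members (50.3% of all genes) and Con-FMT mouse 1 the highest in 9 (59.2%). STZ mouse 1 was highest in 8 (36.3%) and STZ mouse 3 lowest in 6 (50% of all genes), a share near that of all genes. With group means removed, Pearson's r had a median of 0.60 over the 45 pairs of members across 18 mice, and 30 pairs exceeded 0.5. Without STZ+AOS mouse 1 the median was 0.46 and 20 pairs exceeded 0.5. These r describe libraries that share depth and scaling between genes.

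The genes most like Glul across the 18 livers were Cyp7a1 (Pearson's r = 0.858 of log2(RPKM + 1)), Gulo (0.847), Sord (0.814), Arfgap2 (0.806) and Fads2 (0.805). Those most like Cyp2e1 were Tex264 (0.942), Mbl2 (0.940), Cyp2c54 (0.940), Abcb6 (0.938) and Nqo2 (0.932). Group differences enter these r, and all genes of a library share its scaling. STZ+AOS mouse 1, with the lowest Glul and Gulo of all 18 livers, enters them too. They were not computed without this mouse.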

How the data were processed

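Liver mRNA of 18 mice was sequenced, and the deposited values are RPKM. By their methods the authors mapped reads to reference genes with SOAPaligner, and the submitters' processing notes name Bowtie 0.12.2 and mm10, so the mapper of these values is not settled. RPKM are relative to transcript length and mapped reads. Low values were searched for steps of 1 read, but they were too weak to recover reads, so no count test was run. Genes with 1 RPKM or more in at least 3 libraries were kept (10602 in Con, STZ, A10-FMT and Con-FMT, 10822 in all 6 groups). In R 4.3.3, limma 3.58.1 was run on log2(RPKM + 1) with a trend and Benjamini-Hochberg adjustment over all genes of a comparison. The procedure was tested on simulated data. The 4 groups shared a fit, and comparisons with AOS or STZ+AOS used all 6. Samples were grouped by their labels. All 10 members are named, and of each other list at most 4 genes by smallest adjusted p in STZ against Con. Wnt5a, Wnt9b, Zbtb7c and Dkk3, left out by the filter, and Cyp2f2 and Cdh1, which were lower in STZ, were named besides. Members and lists were chosen with earlier results of these data known. Alternatives were other scalings, filters, pseudocount and sets of groups, no trend, a replicate block and leaving out each mouse. Positions come from GENCODE M21, and promoters from RefSeq.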

Additional observations from a re-analysis of the deposited data

How the results depend on the processing

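Counts of members are followed by the share of all genes called in the same fit. STZ against Con had 6 members called (38.5%), and 3 with no filter on low values (20.9%). It had 2 with median-ratio scaling (27.1%) and 3 with quantile normalization (27.1%). With all 6 groups in the fit it had 3 (36.1%), and on leaving out a mouse 2 to 8 (24.2% to 47.4%). A10-FMT against Con had 4 members called (18.4%), 2 with no filter (8.07%) and 7 with only the compared groups in the fit (32.8%). On leaving out a mouse it had 1 to 3 (5.17% to 13.9%). STZ+AOS against AOS had 3 (37.9%), and 1 with median-ratio scaling (24.5%), quantile normalization (25.2%) or only the compared groups (23.9%). On leaving out a mouse it had 1 to 6 (25.6% to 37.5%). A10-FMT against STZ and Con-FMT against STZ ranged from 0 to 1 on leaving out a mouse (0% to 12.7% and 0% to 15.5%). Of 37 log2 changes of members given one by one, 3 turned sign, all on leaving out a mouse: Tbx3 in STZ against Con (-0.20 to 0.20), Cyp1a2 in STZ against Con (-0.36 to 0.23) and Glul in STZ+AOS against STZ (-0.57 to 0.040). Of the other 63, given as ranges, 41 turned on leaving out a mouse and 16 under another setting. No turned value was called in either fit, and the cause was not tested. Oat was called in every fit of the 4 comparisons that set an STZ-treated group against a group without STZ. Mouse numbers recur in the groups. Over 45 pairs of same-numbered mice the correlation of deviations ran from -0.249 to 0.472 and exceeded 0.1 in 16. Pairs of differently numbered mice were not set beside these, so whether the numbers pair mice was not tested. With the replicate block 6 members were again called in STZ against Con, where Glul was lost (adjusted p = 0.0532) and Lgr5 gained (0.0417), and 3 in A10-FMT against Con, where Cyp1a2 was lost (0.0572). The number of reads behind a value is unknown, so the counting error of Lgr5 and Axin2, near 1 and 2 RPKM, could not be separated from the spread between mice.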

Other observations

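The gene whose level was most like that of Oat over the 18 livers was Lhpp, a phosphatase of histidine and lysine residues (Pearson's r = 0.995 of log2(RPKM + 1)). It lies on chromosome 7 (132610638 to 132706420, plus strand, GRCm38), 34240 bases from Oat. Lhpp was at 12.1, 12.5 and 13.2 RPKM in Con and at 81.6, 66.8 and 48.6 RPKM in STZ (log2 change 2.26, SE 0.27, adjusted p = 0.000449 in limma), without overlap. In Con-FMT it was at 90.3, 36.5 and 64.0 RPKM, in the same order of mice as Oat. The next gene, Fam53b, rose by 1.32 (SE 0.15, adjusted p = 0.000342), and Zranb1 rose by 0.63 (adjusted p = 0.00525), while Eef1akmt2, which lies between them, was at 3.41 ± 0.26 RPKM in Con and 3.54 ± 1.05 RPKM in STZ (log2 change 0.01, adjusted p = 0.955). Of 10 coding genes whose annotated span overlapped Oat or lay within 500 kb, 7 were tested and 6 were called higher, against 33% of all genes. Among those called was Fgfr2, whose annotated span (130162451 to 133123350) contains Oat, so it is not a neighbour by distance. This count was made only with the values as deposited. These neighbours were chosen after their values were seen.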
